A study of Mus musculus with 6 samples.

Results

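Omp and 5 genes for bringing odorant receptors to the cilium or for working beside them there, Rtp1, Rtp2, Reep1, Ric8b and Stoml3, were followed in olfactory cells with and without Fezf1. The genes were taken by symbol, each read from the probe set whose mean across the 6 arrays was highest, and all 6 were found among 19938 genes. Every one had a single probe set. The cells were sorted by FACS from the main olfactory epithelium (MOE) of mouse embryos at E18.5 on a C57BL/6 background, with 1 Affymetrix 1.0 ST array for the total RNA of each sample. The targeted Fezf1 allele expresses EGFP from the endogenous Fezf1 promoter, so the sort takes the cells in which that promoter is active. Both genotypes carry this allele, heterozygous cells on a single chromosome copy and homozygous cells on both. Whether the sort took the same cells in both genotypes was not tested. There were 3 arrays of cells heterozygous for the targeted allele of this zinc-finger transcription factor gene (Fezf1+/-) and 3 of cells homozygous for it, called null here (Fezf1-/-). No wild-type cells were compared, the labels name no second allele or agent, and they do not say whether the arrays of a genotype came from separate embryos, litters or pools. The p-values therefore measure the spread between these samples, which may be technical. The signal of Fezf1 ran from 11.12 to 11.30 in heterozygous and from 5.56 to 6.28 in null cells, so the target gene followed the labels.

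An odorant receptor made in an olfactory sensory neuron has to leave the endoplasmic reticulum (ER), pass the Golgi apparatus and enter the cilia of the dendrite before it can meet an odour. RTP1 and RTP2 are membrane proteins that bind odorant receptors and carry them to the cell surface, and many odorant receptors depend on them. REEP1 belongs to a family that shapes ER membranes and was found, like the RTP proteins, by its ability to raise receptors at the surface of cultured cells. RIC8B is a guanine nucleotide exchange factor and chaperone for the olfactory G protein alpha subunit, which the Gnal gene encodes. STOML3 is a stomatin-like membrane protein of the olfactory cilium, and OMP, olfactory marker protein, is an abundant cytoplasmic protein that defines the mature neuron.

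Values are log2 signals, in which 1 unit is a 2-fold ratio, and differences are null minus heterozygous. An array value measures hybridised label, so the levels of different genes are not set against each other. All values of the 6 genes lay above the upper quartile of every array (7.66 to 7.75), and none was in the low range where the background estimate sets the value. Tests were by limma over all genes, with a threshold of 0.05 on the Benjamini-Hochberg adjusted p.

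One array has to be named before the results. Null replicate 1 correlated at 0.905 to 0.935 with the other 5 arrays across genes, and those 5 at 0.975 to 0.995 with each other. On it the markers of mesenchyme and bone lay a median of 3.61 above the other null arrays, those of myeloid cells 1.87, of ensheathing glia 1.55, of endothelium 1.47 and of sustentacular cells 0.96. Markers of immature neurons lay a median of -1.16 from them and the 6 genes a median of -1.63. The share of this in any result below was not tested, and the differences of the 6 genes are given with all 6 arrays and without that array. In sorted populations, fewer mature neurons among the cells and less RNA of a gene per neuron cannot be told apart.

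Omp, Stoml3, Ric8b and Reep1 were lower on every null array than on every heterozygous array, while Rtp1 and Rtp2 were lower on null replicate 1 and within the heterozygous range on the other null arrays. Over all 6 arrays none of the 6 genes passed the threshold, with 4 lower at an unadjusted p under 0.05, where 5.25% of all genes were. Groups that do not overlap, with the null side lower, were found for 4 of the 6 and for 8.77% of all genes. In that fit 0.456% of all genes were called lower. On the 5 arrays without null replicate 1, Omp and Stoml3 fell, 2 of 6 where 1.67% of all genes were called lower, and Rtp1, Rtp2, Reep1 and Ric8b did not pass. Groups without overlap were again found for the same 4 genes, where 16.3% of all genes had them on those 5 arrays with the null side lower.

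**Figure D1:**
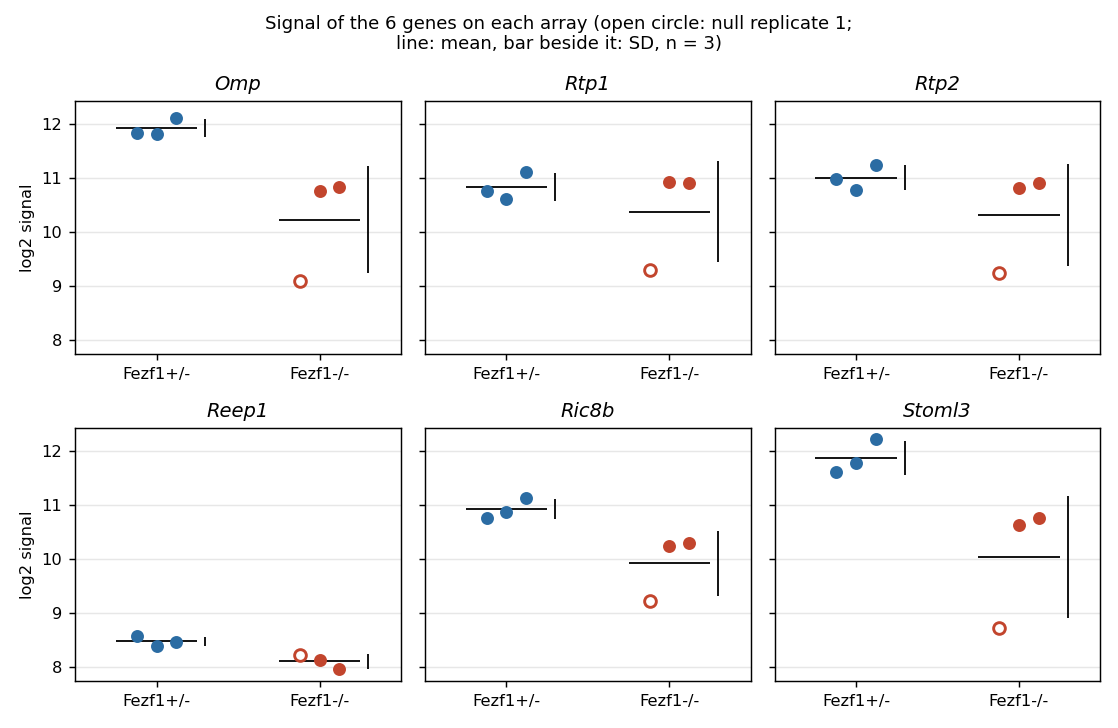
Log2 signal of each of the 6 genes (vertical axis) on the 3 Fezf1+/- and 3 Fezf1-/- arrays, each point 1 array, with null replicate 1 as an open circle, the mean as a line and the SD as a bar (n = 3). For Omp the null arrays lie at 9.09, 10.77 and 10.84, all under the lowest heterozygous array at 11.82, whereas for Rtp1 the null arrays at 10.93 and 10.92 lie inside the heterozygous range of 10.61 to 11.12.

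The signal of Omp was 11.84, 11.82 and 12.12 on the heterozygous arrays and 9.09, 10.77 and 10.84 on the null arrays. The genotypes did not overlap, with null replicate 1 lying -1.71 from the average of both other null arrays. The means were 11.92 ± 0.17 and 10.23 ± 0.99 (SD, n = 3 each), a difference of -1.69 (SE 0.48, 95% interval -2.86 to -0.53, limma adjusted p = 0.327). With null replicate 1 left out Omp fell by 1.12 on the log2 scale, a 2.17-fold lower signal (SE 0.12, interval -1.41 to -0.83, adjusted p = 0.00702). The Omp signal in sorted null cells was still above the array median (5.82 to 5.95) on each null array.

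Stoml3 followed Omp closely. Its signal was 11.61, 11.78 and 12.22 on the heterozygous arrays and 8.73, 10.63 and 10.76 on the null arrays, again without overlap. The difference was -1.83 (SE 0.56, interval -3.20 to -0.47, limma adjusted p = 0.379) over all 6 arrays. On the 5 arrays without null replicate 1 Stoml3 fell by 1.17, a 2.26-fold lower signal (SE 0.18, adjusted p = 0.0243). In that comparison 1.21% of all genes had a lower difference than Stoml3 and 1.36% a lower one than Omp.

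Ric8b, the exchange factor, stood at 10.77, 10.88 and 11.14 on the heterozygous arrays and at 9.22, 10.24 and 10.30 on the null arrays. All 3 null values lay under the lowest heterozygous value, by 0.47 or more. The difference was -1.01 (SE 0.31, interval -1.76 to -0.26, limma adjusted p = 0.379), and -0.66 without null replicate 1 (SE 0.13, interval -0.96 to -0.35, adjusted p = 0.0545), just short of the threshold. Across the 6 arrays Ric8b and Stoml3 had a Pearson correlation of 1.0 after rounding and Omp and Ric8b one of 0.996, as a description of arrays that share null replicate 1 and the genotype contrast. Over the 5 arrays without it these were 1.0 and 0.982.

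Reep1 showed a smaller and more even difference. Its signal was 8.57, 8.40 and 8.47 on the heterozygous arrays and 8.22, 8.14 and 7.96 on the null arrays, and here null replicate 1 was the highest null array. The difference was -0.37 (SE 0.11, interval -0.63 to -0.11, limma adjusted p = 0.335) over all arrays and -0.43 (SE 0.10, interval -0.68 to -0.18, adjusted p = 0.102) without that array. Reep1 was the only 1 of the 6 genes whose difference was larger without null replicate 1.

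The receptor transporters Rtp1 and Rtp2 took another course. The signal of Rtp1 was 10.77, 10.61 and 11.12 on the heterozygous arrays and 9.30, 10.93 and 10.92 on the null arrays. Null replicates 2 and 3 lay above 2 of the 3 heterozygous arrays, so the groups overlapped. The difference of Rtp1 was -0.45 (SE 0.46, interval -1.58 to 0.68, limma adjusted p = 0.769), and without null replicate 1 it turned positive, at 0.09 (SE 0.16, interval -0.28 to 0.47, adjusted p = 0.821). That interval reaches down to -0.28 and does not hold the difference of -1.12 seen for Omp on the same arrays.

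Rtp2 stood at 10.98, 10.79 and 11.25 on the heterozygous arrays and at 9.24, 10.82 and 10.92 on the null arrays. Null replicates 2 and 3 both lay inside the heterozygous range. The difference was -0.68 (SE 0.46, interval -1.80 to 0.45, limma adjusted p = 0.694) over all arrays and -0.14 (SE 0.15, interval -0.48 to 0.21, adjusted p = 0.700) without null replicate 1. Neither p shows that the transporters were equal in both genotypes. The intervals bound the change on those 5 arrays to between -0.28 and 0.47 for Rtp1 and between -0.48 and 0.21 for Rtp2.

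**Figure D2:**
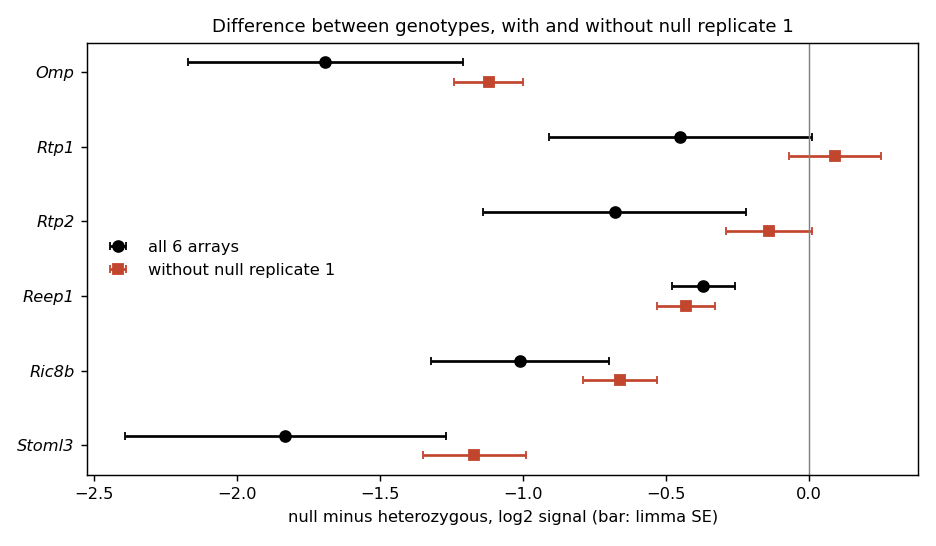
Null minus heterozygous difference in log2 signal (horizontal axis) of the 6 genes, with limma's SE as bars, over all 6 arrays (circles) and without null replicate 1 (squares). Without that array Omp and Stoml3 lie at -1.12 and -1.17, Rtp1 and Rtp2 at 0.09 and -0.14.

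Start regions were set side by side because 4 of the 6 genes were lower on every null array than on every heterozygous array and the transporters were not. That grouping rests on the overlap of ranges alone. RefSeq windows of GRCm38.p6, from 250 bases before to 50 after the start of the gene, matched 4 of the 6 genes, Stoml3, Ric8b, Reep1 and Rtp2. Omp and Rtp1 were not matched. The Stoml3 window is chr3:53488457-53488756 on the plus strand, the Ric8b window chr10:84917363-84917662 on the plus strand, the Reep1 window chr6:71707431-71707730 on the plus strand and the Rtp2 window chr16:23930745-23931044 on the minus strand. Each is printed from 5′ to 3′ along its gene, with capitals for the letters that matched a searched motif:
Stoml3: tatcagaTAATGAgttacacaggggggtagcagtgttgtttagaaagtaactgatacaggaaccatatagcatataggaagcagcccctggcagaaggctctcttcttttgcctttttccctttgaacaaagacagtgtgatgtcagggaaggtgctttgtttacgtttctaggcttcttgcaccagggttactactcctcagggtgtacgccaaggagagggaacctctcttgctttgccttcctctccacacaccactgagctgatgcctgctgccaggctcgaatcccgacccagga
Ric8b: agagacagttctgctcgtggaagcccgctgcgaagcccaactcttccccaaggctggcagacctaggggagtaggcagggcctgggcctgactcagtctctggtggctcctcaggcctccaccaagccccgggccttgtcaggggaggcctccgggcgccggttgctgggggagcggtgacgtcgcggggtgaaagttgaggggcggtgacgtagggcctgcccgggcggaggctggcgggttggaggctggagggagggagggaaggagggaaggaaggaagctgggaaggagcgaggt
Reep1: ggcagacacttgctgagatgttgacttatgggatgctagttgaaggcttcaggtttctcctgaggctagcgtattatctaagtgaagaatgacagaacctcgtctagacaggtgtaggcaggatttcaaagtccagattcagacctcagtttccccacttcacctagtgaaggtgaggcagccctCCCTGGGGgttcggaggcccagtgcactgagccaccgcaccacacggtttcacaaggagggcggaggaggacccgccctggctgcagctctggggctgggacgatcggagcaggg
Rtp2: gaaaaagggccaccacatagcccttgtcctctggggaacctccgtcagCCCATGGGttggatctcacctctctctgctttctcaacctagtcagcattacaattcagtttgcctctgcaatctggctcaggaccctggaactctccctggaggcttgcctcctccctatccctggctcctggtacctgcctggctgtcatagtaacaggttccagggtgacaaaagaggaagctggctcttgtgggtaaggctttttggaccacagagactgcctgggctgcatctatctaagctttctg

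Motifs were searched on both strands as exact letters: CCCNNGGG, the core of the palindrome to which the EBF factors of olfactory neurons bind, and the homeodomain letters TAATTA and TAATGA, as LHX2 and other homeodomain factors bind. The motifs searched do not overlap each other in these windows. Stoml3, which fell on the 5 arrays, held TAATGA starting at -243 from the gene start, and 9.78% of 32851 mouse windows of this length held it. Reep1 held CCCNNGGG at -65 and Rtp2 held it at -202, and 13.7% of windows held it. No window of the 4 held TAATTA (5.29% of all windows), and Ric8b held none of the 3 motifs. In these 4 windows the letters did not divide the genes that were lower on every null array from Rtp2. Rtp2 was the only transporter with a window and Omp had none, so the search cannot decide whether such motifs divide the genes. The windows also differed in the number of CG pairs, with 17 in that of Ric8b, 9 in that of Reep1, 4 in that of Stoml3 and 1 in that of Rtp2, against a median of 7 over all windows. In base composition Rtp2 lay within the range of the others, with G and C making up 68.3%, 56.7%, 49.3% and 54.0% in the same order.

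Whether the 6 genes changed unequally was examined within each array, as the deviation of 1 gene from its heterozygous mean minus that of another. This comparison was added after the values were seen. The change of Omp minus the change of Rtp1 was -1.30, -1.25 and -1.17 on null replicates 1, 2 and 3, against -0.02, 0.12 and -0.10 on the heterozygous arrays. Null replicate 1, which lay lowest for both genes, gave nearly the same value here as the other null arrays. The mean was -1.24 (SE 0.08) and -1.21 without null replicate 1. The exact permutation test, two-sided, gave p = 0.1, the smallest it can give with 3 arrays against 3, and 0.15 after adjustment over the 15 pairs.

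Omp changed more than Rtp2 by a similar amount on each null array, -1.07, -0.97 and -1.0, a mean of -1.01 (SE 0.06). Rtp1 minus Stoml3 came to 1.61, 1.33 and 1.20, a mean of 1.38 (SE 0.16), and Rtp2 minus Stoml3 to 1.15 (SE 0.16). Rtp1 and Rtp2 differed little in their change, by 0.23 (SE 0.04), with all 3 null arrays (0.23, 0.28 and 0.17) above the heterozygous ones (-0.04, -0.01 and 0.05). Omp and Stoml3 differed by 0.14 (SE 0.13, exact p = 0.4), and their null values of 0.31, 0.08 and 0.03 overlapped the heterozygous range. Pairs with Reep1 rested more on null replicate 1, with Omp minus Reep1 at -2.58, -0.82 and -0.56 on the null arrays, a mean of -1.32 (SE 0.64) that came to -0.69 without that array. Reep1 minus Stoml3 was 2.89, 0.90 and 0.59, a mean of 1.46 (SE 0.75) that came to 0.74 without it. The transporters were not set apart from Reep1 in this way. Rtp1 minus Reep1 came to -0.08 (SE 0.62) and Rtp2 minus Reep1 to -0.31 (SE 0.62), with null values that overlapped the heterozygous range. Null values also overlapped that range for Rtp2 minus Ric8b (0.33, SE 0.21) and for Reep1 minus Ric8b (0.63, SE 0.44).

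**Figure D3:**
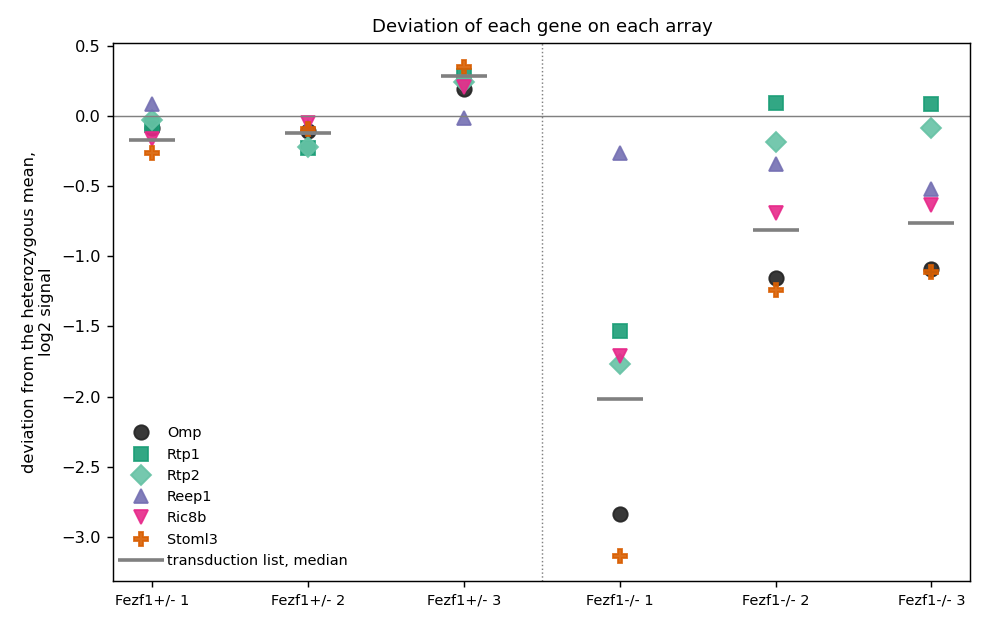
Deviation of each gene from its own heterozygous mean (vertical axis, log2 signal) on the 3 Fezf1+/- and 3 Fezf1-/- arrays, with the median of the 12 odour transduction genes as a grey dash. Omp lies under Rtp1 by 1.30, 1.25 and 1.17 on the 3 null arrays, although both are lowest on null replicate 1.

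The odour transduction genes, which carry the signal from the receptor to the membrane current, were the list nearest to the 6 genes in function. All 12 had a negative difference, with a median of -1.18 over all arrays against 0.02 for all genes. The share of all genes with a given sign was not counted, for this list or those below. None of the 12 passed by limma, with 8 lower at an unadjusted p under 0.05, where 5.25% of all genes were. Over 5 arrays, leaving out null replicate 1, where 1.67% of all genes were called lower, the median was -0.84 and 3 of 12 fell. These were the exchanger gene Slc24a4 (-1.15, SE 0.16, adjusted p = 0.0168), the phosphodiesterase gene Pde1c (-0.89, SE 0.14, adjusted p = 0.0272) and the adenylate cyclase gene Adcy3 (-0.93, SE 0.17, adjusted p = 0.0432). Over all 6 arrays they differed by -1.07, -0.97 and -1.28. Gnal, whose protein RIC8B stabilises, stood at 9.69, 10.08 and 10.56 on the heterozygous arrays and at 7.18, 8.97 and 9.11 on the null arrays. Its difference was -1.69 (SE 0.55, limma adjusted p = 0.411), and -1.07 without null replicate 1 (SE 0.24, adjusted p = 0.0776), beside -1.01 and -0.66 for Ric8b.

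Set against the median of the transduction list on the same array, Rtp1 and Rtp2 were higher in null cells. The list itself deviated by a median of -2.02, -0.81 and -0.76 on null replicates 1, 2 and 3. A gene without change would therefore also lie higher on this measure, and the share of all genes that did was not counted. Relative to that median Rtp1 lay 0.84, 1.09 and 0.93 higher on the null arrays than in the heterozygous mean, a change of 0.95 (SE 0.16), and Rtp2 lay 0.61, 0.81 and 0.75 higher, a change of 0.72 (SE 0.17). Heterozygous arrays varied between -0.20 and 0.31 in these quantities. Omp changed by -0.29 (SE 0.15), with null values of -0.46, -0.16 and -0.25 that overlapped the heterozygous range of -0.17 to 0.24. Stoml3 changed by -0.43 (SE 0.18) and Ric8b by 0.40 (SE 0.17), both outside their own heterozygous range on all 3 null arrays. Reep1 changed by 1.03 (SE 0.60), of which null replicate 1 gave 2.12, and by 0.49 without that array. No test was run on these relative values.

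Most relatives of the transporters, of Ric8b and of Stoml3 were not called in either fit. Of 11 paralogues none passed over all 6 arrays, with an unadjusted p under 0.05 for 1 gene in each direction. Without null replicate 1 Stom fell and Reep5 rose, with 9 not called. On those arrays 1.67% of all genes were called lower and 0.993% higher. Stom encodes stomatin, the founding member of the family of STOML3, and stood at 11.82, 12.05 and 12.29 on the heterozygous arrays and at 9.85, 10.91 and 11.20 on the null arrays. All null arrays were below all heterozygous arrays. The difference of Stom was -1.40 (SE 0.36, limma adjusted p = 0.273), and -1.0 without null replicate 1 (SE 0.16, adjusted p = 0.0278). Reep5, an ER-shaping relative of Reep1, stood at 8.10, 8.15 and 8.06 on the heterozygous arrays and at 8.66, 9.37 and 9.16 on the null arrays, the opposite direction to Reep1. Its difference was 0.96 (SE 0.19, limma adjusted p = 0.151), and 1.16 without null replicate 1 (SE 0.10, adjusted p = 0.00321), a 2.23-fold higher signal.

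Among the other paralogues, Ric8a, which serves other G protein alpha subunits than RIC8B, differed by -0.0 over all arrays and by 0.16 without null replicate 1 (SE 0.09, limma adjusted p = 0.429). The stomatin relatives Stoml1 and Stoml2 differed by -0.33 and -0.10 over all arrays and by -0.11 and -0.07 on those 5 arrays. Rtp4 differed by 0.17 over all arrays and by -0.15 on the 5, and Rtp3 by 0.03 in both, and both genes had a low signal, between 4.52 and 4.85 for Rtp3 and between 5.09 and 6.29 for Rtp4. Reep2, Reep3, Reep4 and Reep6 differed by 0.09, 0.27, 0.02 and -0.08 over all arrays and by 0.16, -0.01, 0.01 and -0.19 on the 5. Reep3 was high on null replicate 1 alone, at 9.11 against 8.15 to 8.45 on the other 5 arrays.

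**Figure D4:**
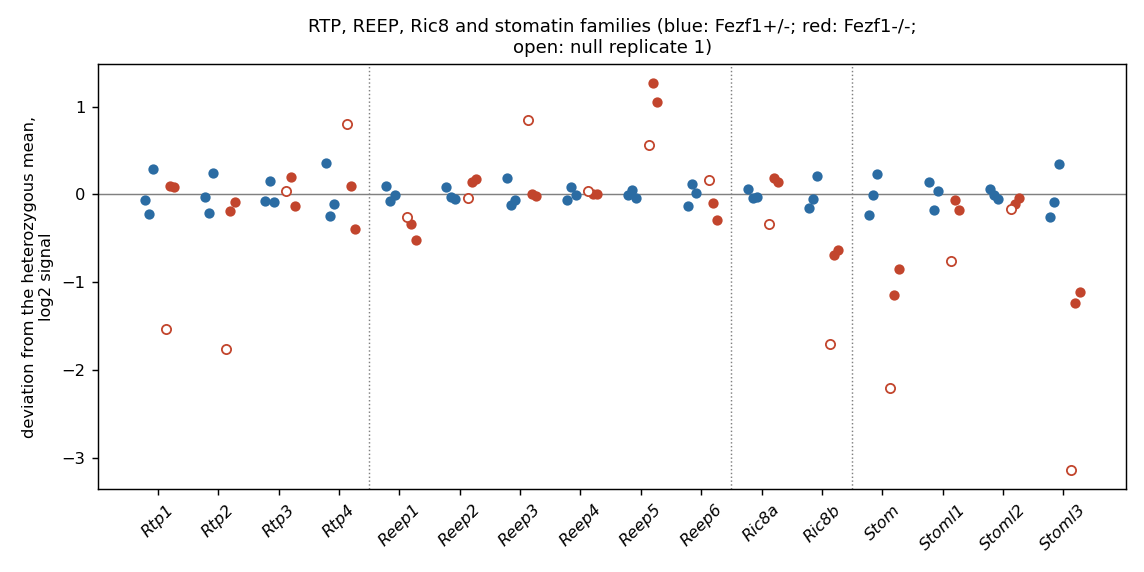
Deviation of each member of the RTP, REEP, Ric8 and stomatin families from its heterozygous mean (vertical axis, log2 signal), with Fezf1+/- arrays in blue, Fezf1-/- arrays in red and null replicate 1 as an open circle. Reep5 lies above its heterozygous arrays on all 3 null arrays, while Stom, Stoml3, Ric8b and Reep1 lie below theirs.

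Rtp1 and Rtp2 are near each other on chromosome 16, in the order Rtp1, Masp1, Rtp4, Sst and Rtp2 of protein-coding genes in RefSeq (GRCm38.p6). Omp is on chromosome 7, Reep1 on chromosome 6, Ric8b on chromosome 10 and Stoml3 on chromosome 3. The protein-coding genes just before and after each of the 6 genes, in order of start position, gave 12 neighbours, a comparison added after the values were seen. Whether a neighbour overlaps its gene was not examined. Of the 12, 0 passed over all 6 arrays by limma, with 1 at an unadjusted p under 0.05. Over the 5 arrays their differences ran from -0.62 to 0.29 and 1 passed, Bcl6 beside Rtp2 (-0.62, SE 0.10, adjusted p = 0.0250; -0.14 over all arrays). Capn5 and B3gnt6 beside Omp differed by -0.14 and -0.10 there and both by -0.09 over all arrays.

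Genes of receptor folding and ER stress had list medians near that of all genes (0.02). Of 16 genes none passed in either limma fit, and an unadjusted p under 0.05 over all arrays was reached by 1 gene, on the higher side, and the median difference was 0.03 over all arrays and -0.01 without null replicate 1. Pdia6, a protein disulphide isomerase, had the smallest p (0.33, SE 0.10, limma adjusted p = 0.358; 0.26 without null replicate 1), followed by the stress factor gene Ddit3 (-0.60, SE 0.24, adjusted p = 0.527; -0.33 without it). Atf5, the transcription factor that receptor expression switches on through the unfolded protein response, is named after its values were seen. It stood at 10.79, 10.73 and 11.12 on the heterozygous arrays and at 9.14, 10.75 and 10.68 on the null arrays, with a difference of -0.69 (SE 0.45, limma adjusted p = 0.683) that came to -0.16 without null replicate 1 (SE 0.14, adjusted p = 0.616). These are close to the values of Rtp2.

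Of 10 measured genes of Golgi and ciliary transport none passed in either limma fit. Over all arrays 2 were lower at an unadjusted p under 0.05, where 5.25% of all genes were. All 10 had a negative difference over all arrays, with a median of -0.30, and 8 of 10 did without null replicate 1, with a median of -0.15. The median over all genes was 0.02 in both fits. Ift20, which carries cargo from the Golgi to the cilium, differed by -0.30 (SE 0.11, limma adjusted p = 0.470) and the Bardet-Biedl complex gene Ttc8 by -0.60 (SE 0.23, adjusted p = 0.500). On the 5 arrays they differed by -0.27 and -0.35.

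Other neuronal lists were read beside the 6 genes. Of 7 further mature neuron genes, the adhesion gene Kirrel2 fell without null replicate 1 (-1.21, SE 0.14, limma adjusted p = 0.00830; -1.67 over all arrays) and 6 did not pass, with list medians of -0.84 and -0.35 over all arrays and without that array. Ncam2, 1 of those 6, went the other way without null replicate 1 (0.36, SE 0.12, adjusted p = 0.207; -0.11 over all arrays). On the 5 arrays its null values lay above all heterozygous values. The 16 immature neuron genes had medians of -0.08 and 0.33. On the 5 arrays 15 of these 16 had a positive difference, against a median of 0.02 for all genes. Stmn4 (0.94, SE 0.14, limma adjusted p = 0.0236), Chl1 (0.77, SE 0.10, adjusted p = 0.0126) and Ablim1 (0.71, SE 0.10, adjusted p = 0.0166) rose there, where 0.993% of all genes were called higher. Over all 6 arrays these 3 differed by 0.35, 1.15 and 0.38 and did not pass. The 14 transcription factors of olfactory neurons had medians of -0.19 and 0.04, with a fall called without that array for Nfix (-0.72, SE 0.13, adjusted p = 0.0416). Over all arrays the difference of Nfix was -0.20. The other 13 did not pass in either fit. On the 5 arrays 1.67% of all genes were called lower.

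**Figure D5:**
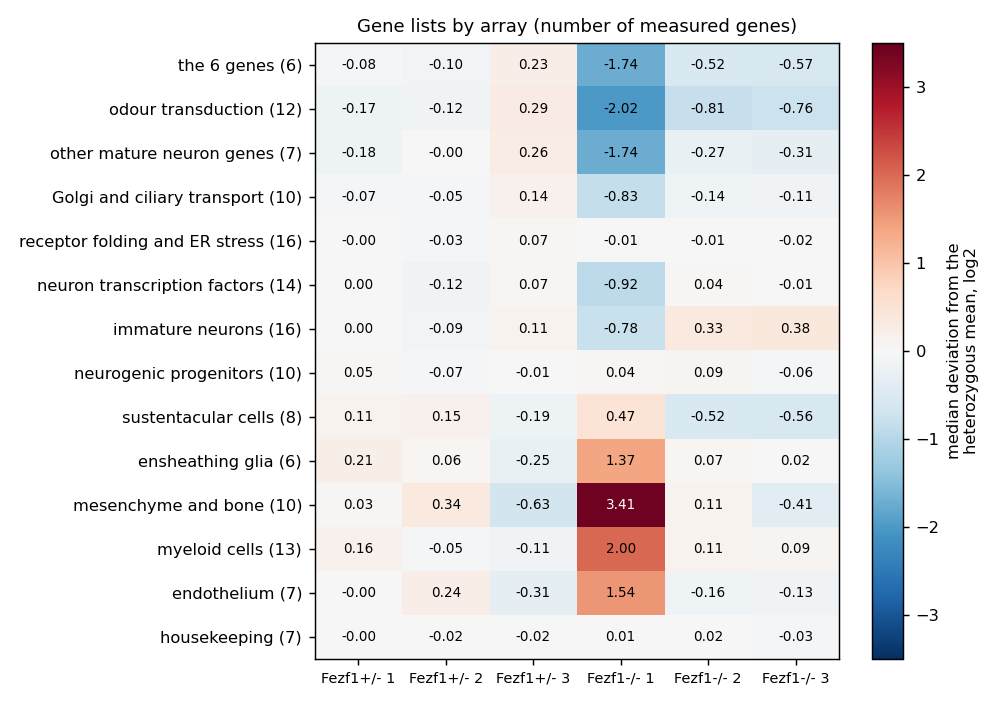
Median deviation from the heterozygous mean (colour and printed value, log2 signal) of each gene list on each array, with the number of measured genes. The medians of the 6 genes and of the transduction list are lower on all 3 null arrays, at -1.74, -0.52 and -0.57 and at -2.02, -0.81 and -0.76. The median of the immature neuron genes is at -0.78, 0.33 and 0.38. Rtp1 and Rtp2 lie within their heterozygous range on null replicates 2 and 3.

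Summed linear signals show how other cells varied beside these results. Mesenchyme and bone markers, 10 of 11 measured, summed to between 1142 and 2603 on the heterozygous arrays and to between 1249 and 18525 on the null arrays, the highest being null replicate 1. Myeloid markers, 13 of 13, summed to 544 to 716 and 628 to 3587, ensheathing glia, 6 of 8, to 572 to 893 and 652 to 5329, and endothelium, 7 of 7, to 222 to 362 and 265 to 889. Sustentacular markers, 8 of 10, summed to 9669 to 11915 and 7851 to 15801, and 3 of 6 erythroid markers to 105 to 139 and 108 to 959. The erythroid sum of 959, on null replicate 1, rested on 1 gene, Alas2, at 9.78 there. Hba-x and Hbb-y stood at 5.53 and 4.95 on that array. No marker is listed at 0, and the 7 housekeeping genes summed to 32516 to 33495 and 32775 to 33893. On null replicates 2 and 3, where Omp and Stoml3 were also lower, mesenchyme markers deviated by a median of 0.11 and -0.41 from the heterozygous mean, myeloid markers by 0.11 and 0.09 and ensheathing glia by 0.07 and 0.02. Sustentacular markers deviated there by -0.52 and -0.56.

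The genes with the profile most like Omp over the 6 arrays, with the 6 genes themselves left out, among 9963 genes above the median gene, were Kif9 (Pearson r = 0.9991), Olfr1222 (0.9982), Suz12 (0.9981), Olfr685 (0.9968) and Brinp2 (0.9968). Omp had r = 0.997 with Stoml3 and 0.996 with Ric8b. Kif9 encodes a kinesin and both Olfr genes odorant receptors. Kif9 stood at 8.87, 8.91 and 9.15 on the heterozygous arrays and at 6.90, 8.07 and 8.18 on the null arrays. Suz12, a Polycomb subunit, had the same shape at a smaller size, with a difference of -0.48 (SE 0.16) over all arrays and -0.31 without null replicate 1. Most like the mean of the 6 genes, among the same 9963, were Ak1 (0.9996), the chloride channel gene Ano2 of odour transduction (0.9992), Prxl2b (0.9991), Gramd1c (0.9988) and Lrriq1 (0.9979). These values describe n = 6 arrays that share null replicate 1.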

How the data were processed

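RNA of sorted cells (100 ng per sample, E18.5) was labelled with biotin for the arrays, per the labels' protocols. Each deposited value is a log2 signal of 1 probe set on 1 array. The submitters' processing notes name GCRMA and Affymetrix Expression Console as the authors' tools, and their order, versions and genome build are not given in the sources used here. A base of 2 was inferred from the range, 2.14 to 14.51. GCRMA subtracts an estimated background and compresses low values.

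Of 35557 probe sets, 21789 carried 1 symbol in the 2016 platform annotation, 1621 several and 12147 none listed. Symbols were updated by Entrez number to RefSeq for 21698. A gene was read from the probe set whose mean across the arrays was highest, leaving 19938 genes with no filter. The fit of null against heterozygous arrays (3 each) used limma 3.58.1 (lmFit, eBayes, two-sided) under R 4.3.3, with Benjamini-Hochberg adjustment over all genes. The procedure was tested on simulated data. The number of arrays limits the precision.

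The genes and lists were chosen with earlier results of these data known. Named were the 6 genes, their paralogues, and from each list up to 4 called members or the 2 with the smallest p. Genes of the likeness comparison were the 5 of highest r. Alternatives were other normalisations, a filter on low genes, averaged probe sets, other moderation, array weights, the replicate block and leaving out each array. The counts per list without null replicate 1 were added after seeing the data.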

Additional observations from a re-analysis of the deposited data

How the results depend on the processing

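The sign of the difference was kept in 76 of 78 alternative fits of the 6 genes. The exceptions were both Rtp1, at 0.09 with array weights and at 0.09 without null replicate 1. Array weights, which down-weight an array that stands apart, called 740 genes against 110, among them Omp (-1.16, adjusted p = 0.0222), Ric8b (-0.68, adjusted p = 0.0482) and Stoml3 (-1.22, adjusted p = 0.0374). A filter to genes above the median mean left 24 calls, from fewer genes tested. Leaving out 1 array gave between 40 (without null replicate 2) and 531 calls (without null replicate 1), with 69, 55 and 45 without heterozygous replicates 1, 2 and 3 and 51 without null replicate 3. Over all 13 alternatives the differences ran from -2.0 to -1.12 for Omp, -2.19 to -1.17 for Stoml3, -1.20 to -0.66 for Ric8b, -0.43 to -0.30 for Reep1, -0.98 to -0.14 for Rtp2 and -0.72 to 0.09 for Rtp1. The adjusted p ran from 0.00702 to 0.941 for Omp, 0.0243 to 1.0 for Stoml3 and 0.0482 to 1.0 for Ric8b. The cause of these shifts was not tested. Deviations of same-numbered arrays from their group means had correlations of 0.225, -0.332 and 0.541. Null replicate 1 stands apart and weighs on the null deviations, so these values cannot decide whether the numbers pair the arrays. With the replicate block 88 genes were called, and none of the 6 genes (Omp -1.69, adjusted p = 0.296). Quantile normalisation (107 calls), centring (106), averaged probe sets (108) and trend with robust moderation (109) changed no call of the 6 genes. Signal over background was not examined per probe, which limits low genes such as Rtp3.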

Other observations

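Genes of motile cilia and of vomeronasal neurons, which the comparisons above leave aside, were read on the same arrays. All 6 respiratory ciliated cell genes had a negative difference, with a median of -0.51 over all arrays and -0.36 without null replicate 1. None passed by limma in either fit, with 1 and 2 lower at an unadjusted p under 0.05. Over all arrays 5.25% of all genes were lower at that cut. Foxj1, the master factor of motile cilia, which olfactory neurons also express, differed by -0.42 (SE 0.16, adjusted p = 0.504) and Tekt1 by -0.53 (SE 0.23, adjusted p = 0.537), and by -0.32 and -0.31 without null replicate 1. Of 3 measured vomeronasal genes the G protein gene Gnai2 rose by 1.17 (SE 0.12, limma adjusted p = 0.0201), from 9.20, 9.42 and 9.06 to 10.47, 10.36 and 10.36 (1.13 without null replicate 1), a call that was lost when heterozygous replicate 1 or 3 or null replicate 2 or 3 was left out, and with the replicate block. Meis2 differed by 0.43, and by 0.38 without null replicate 1. Gnao1 differed by -0.21 over all arrays and by 0.23 without null replicate 1, so its direction turned with that array, and it did not pass in either fit.

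Lists with no called member in either fit were neurogenic progenitors (10 genes, medians -0.01 and -0.02), mesenchyme and bone (10, 0.97 and -0.11), myeloid cells (13, 0.78 and 0.11), ensheathing glia (6, 0.32 and 0.04), endothelium (7, 0.39 and -0.18), erythroid cells (3, 0.23 and 0.10) and housekeeping (7, -0.07 and 0.00), over all arrays and without null replicate 1 by limma. At an unadjusted p under 0.05 over all arrays, 1 progenitor gene was higher, Pax6 (1.01, SE 0.37; 1.14 without null replicate 1), and 0 genes of the other lists named here passed. Without null replicate 1 the same count was 6 in progenitors, 3 in each direction, and 2 in myeloid cells, both higher. It was 1 each in mesenchyme and ensheathing glia, both lower, and 0 in the others. The share of all genes at that cut without null replicate 1 was not counted, here or for the ciliated cell genes. The progenitor gene Hes6 differed by -0.25 and, without that array, by -0.32. The smallest p-values in the other lists, with the difference over all arrays and then without null replicate 1, were those of Sp7 (0.51, 0.27), Col2a1 (0.54, 0.17), S100a9 (0.83, 0.33), Cd68 (0.86, 0.30), Ngfr (0.31, 0.32) and S100b (0.88, 0.23). They were followed in endothelium, erythroid cells and housekeeping by Cldn5 (0.66, 0.23), Flt1 (0.39, 0.13), Hba-x (0.23, 0.20), Hbb-y (-0.23, -0.21), Sdha (-0.12, -0.09) and Tbp (-0.11, -0.17). Sustentacular genes had medians of -0.23 and -0.58 over 8 genes, and Ermn fell without null replicate 1 (-0.96, SE 0.15, adjusted p = 0.0240; -0.48 over all arrays). Without that array 7 of the 8 had a negative difference. Krt8 went the other way and was higher on every null array than on every heterozygous array. Its difference was 0.67 over all arrays (SE 0.18, limma adjusted p = 0.300) and 0.60 without null replicate 1 (SE 0.18, adjusted p = 0.178).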
